A study of Mus musculus with 4 samples.

Results

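Microglia and macrophage genes were followed in RNA pools of whole fetal mouse brain as a set of 10 named genes, out of 28104 genes on the array: Tyrobp, C1qa, C1qb, C1qc, Aif1, Csf1r, Cx3cr1, Trem2, P2ry12 and Ctss. Members were taken by gene name from the scanner files, which hold 15 probes for them, and 4 of the 10 genes had more than 1 probe. The FD pool was made from brains of fetuses whose dams went without food overnight on gestation day 17. The FR pool came from fetuses of dams given 50% of the chow that controls ate between gestation days 10 and 17, with caesarean section on gestation day 18. The collection day of FD fetuses is not stated. The reference for each was brain RNA of fetuses whose dams ate ad libitum. All mice were C57BL/6J, no genetic change is stated for any group, and each pool combined the RNA of 5 fetuses. FD and FR were each hybridised against control RNA on 2 two-colour arrays, with the treated pool in the red dye Cy5 on array 1 and in the green dye Cy3 on array 2. The labels do not say whether both comparisons used the same control pool, so the controls are called the control of FD and the control of FR. With 1 pool per condition there was no biological replicate, differences between pools and effects of the diet cannot be told apart, and no test was made.

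Microglia are the resident macrophages of brain tissue. They descend from yolk sac precursors that enter the brain early in gestation, and in the fetal brain they clear dying cells and help to shape developing circuits. Their survival depends on the receptor Csf1r and its ligands Csf1 and Il34. The receptor Trem2 signals through its adaptor Tyrobp, also called DAP12, and C1qa, C1qb and C1qc encode the chains of C1q, which starts the classical complement cascade. Cx3cr1 is the receptor for the neuronal chemokine Cx3cl1, P2ry12 senses adenine nucleotides, Aif1 encodes the actin-binding protein IBA1, and Ctss encodes the lysosomal protease cathepsin S. Most of these genes are also transcribed by macrophages of the meninges and vessels, and several by blood myeloid cells.

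Each value below is the signal of a probe of 60 bases. The probes of Tyrobp, C1qa and C1qb are shown because each is the gene's only probe, and the second probes of Aif1, Cx3cr1 and Trem2 because their values stand beside the brighter probe of the same gene. Positions on build mm9 were copied from the array files, where exons are not annotated. The sequences run 5′ to 3′ in lower case with no part marked.
Tyrobp probe, chr7:31200651-31202378, plus strand: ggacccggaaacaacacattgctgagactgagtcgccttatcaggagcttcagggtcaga
C1qa probe, chr4:136452409-136452468, minus strand: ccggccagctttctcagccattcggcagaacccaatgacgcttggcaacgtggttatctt
C1qb probe, chr4:136436578-136436637, minus strand: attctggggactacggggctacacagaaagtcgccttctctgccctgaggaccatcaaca
Aif1 second probe, chr17:35308497-35308742, minus strand: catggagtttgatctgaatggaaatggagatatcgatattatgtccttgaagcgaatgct
Cx3cr1 second probe, chr9:119960610-119960669, minus strand: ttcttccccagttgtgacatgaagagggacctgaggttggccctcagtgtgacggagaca
Trem2 second probe, chr17:48491220-48491356, plus strand: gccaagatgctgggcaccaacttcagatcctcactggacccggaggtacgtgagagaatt
The Tyrobp probe spans 1728 genomic bases, the second Aif1 probe 246 and the second Trem2 probe 137, so these are split in the genome. The C1qc probe lay at chr4:136445766-136445825 on the minus strand, between those of C1qb and C1qa. The brighter probes of Aif1, Cx3cr1 and Trem2 lay at chr17:35307959-35308018, chr9:119959018-119959077 and chr17:48491522-48491581. The single probes of P2ry12 and Ctss lay at chr3:59020598-59020657 and chr3:95360162-95360221.

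All 10 genes were well above background in all 4 pools, with 1 spot per probe on each array and no saturated spot. Csf1r had 3 probes. The Ctss probe was the brightest of the set, with 10.4 to 76.3 times the local background, followed by that of C1qc with 8.33 to 53.0 times. The P2ry12 probe gave 1.52 to 3.39 times and the second Cx3cr1 probe 1.18 to 1.75 times the local background. Of neuronal and astrocyte markers, 15 of 15 and 11 of 11 on the array were above background in every pool. So were 8 of 10 skeletal muscle genes and 8 of 10 bone and osteoclast genes, so detection alone cannot identify the tissue. Of 43379 spots other than controls, 73.5% to 84.2% were well above background in the treated channel and 71.4% to 85.3% in the control channel. Skeletal muscle genes set 1 pool apart. The mean level of 8 of them was 7.86 in FD, against 9.79 in the control of FD, and it was 8.20 in FR, against 8.20 in the control of FR (log2 channel levels). The part of this difference in the values below was not tested.

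Values are log2 ratios of the treated pool over its control pool with the dye exchange taken into account. Each gene is represented by its brightest measured probe, which for genes outside the member set can differ between comparisons. A gene counted as measured when both channels of that probe stood well above background on each array, which held for 9 of the 10 members in each comparison. Ctss dropped out because 1 of its 2 spots in each comparison carried an outlier flag. The technical SD of the mean of both arrays, over 16750 genes and with the gene-specific dye effect common to FD and FR removed, was 0.0722, and that of a difference between FD and FR was 0.102. Within a comparison the arrays differed by more than this for some members, in the same direction in FD and FR. Array 1 exceeded array 2 by 0.37 in FD and 0.42 in FR for Tyrobp, by 0.27 and 0.37 for Trem2, and by 0.24 and 0.17 for P2ry12. In bulk tissue fewer cells of a type and less RNA per cell cannot be told apart.

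**Figure D1:**
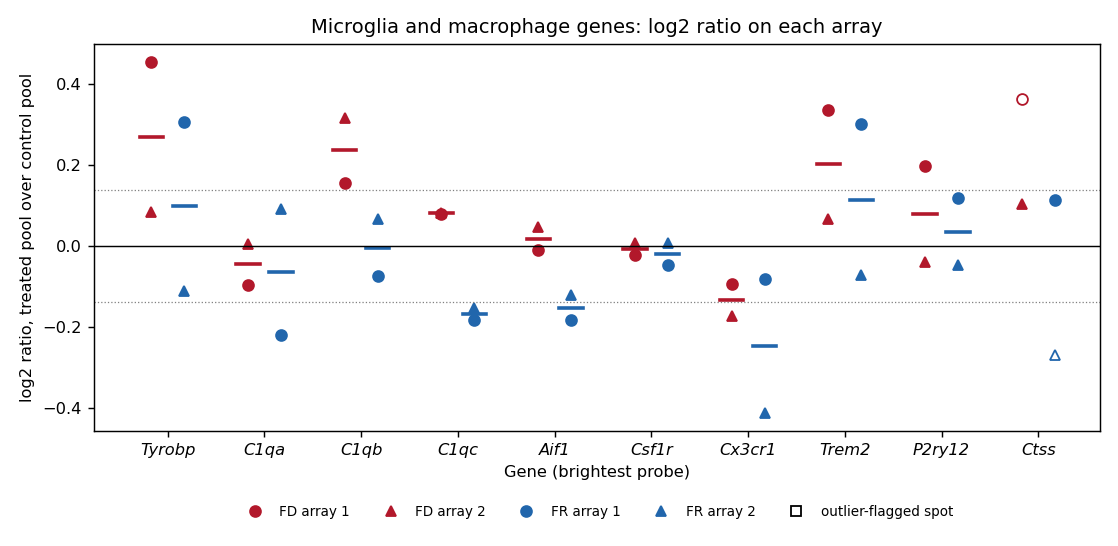
Log2 ratio of treated over control pool (vertical axis) for the brightest probe of each gene (horizontal axis). Circles are array 1, triangles array 2, red FD, blue FR, short lines the means, dotted lines a 1.1-fold change, and open symbols spots with an outlier flag. C1qb lies above the upper dotted line on both FD arrays and C1qc below the lower one on both FR arrays.

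After overnight food deprivation, Tyrobp, C1qb and Trem2 were 1.15- to 1.20-fold higher in FD than in control, and the other measured members lay within 1.1-fold of control. The median of the 9 measured members was 0.08, against 0.00 for all 17951 measured genes. It was above 0 in each of the 10 alternative settings tried, some of which gave identical values. Only C1qb was at least 1.1-fold higher on both arrays, so 1 of 9 members reached this size, against 4.88% of all genes. No member was at least 1.1-fold lower on both arrays, against 4.62%, and none passed 1.5-fold in either direction, against 0.0891% of all genes higher and 0.128% lower. By sign alone, 4 of 9 members were higher on both arrays (Tyrobp, C1qb, C1qc and Trem2), against 25.5% of all genes, and 1 of 9 was lower (Cx3cr1), against 23.3%.

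Among the receptors, the signalling pair of Trem2 and Tyrobp stood highest. The log2 ratio of Tyrobp was 0.45 on array 1 and 0.08 on array 2, with a mean of 0.27 (1.20-fold). Trem2 gave 0.34 and 0.07 with its brighter probe (mean 0.20, 1.15-fold) and 0.23 and 0.11 with its second probe (mean 0.17). Both genes were higher on each array, but array 1, with FD in Cy5, carried most of the size. Csf1r, the growth factor receptor, gave -0.02 and 0.01 with its brightest probe, and its second measured probe gave -0.21 and 0.08, with no common direction. P2ry12 gave 0.20 and -0.04, again higher on array 1 alone. Cx3cr1 was lower on both arrays with its brighter probe, at -0.09 and -0.17 (mean -0.13), while its second probe, close to background, gave 0.10 and 0.03. The 2 Cx3cr1 probes therefore disagreed in sign.

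The chains of C1q differed in their values. C1qb gave 0.16 and 0.32 (mean 0.24, 1.18-fold) and C1qc 0.08 on both arrays (mean 0.08, 1.06-fold), while C1qa gave -0.10 and 0.01 (mean -0.05). C1qb was the member whose arrays were both past 1.1-fold. Aif1 gave -0.01 and 0.05 with its brighter probe and -0.24 and 0.27 with its second, whose means were 0.02 and 0.015. Ctss gave 0.10 on array 2, and 0.36 on array 1 if the flagged spot is kept, a mean of 0.23.

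After food restriction, C1qc, Aif1 and Cx3cr1 were lower in the FR pool than in its control on both arrays, and no member was higher on both. The median of the 9 measured members was -0.02, against 0.01 for all 18550 measured genes, and it was below 0 in each of the 10 alternatives. Only C1qc was at least 1.1-fold lower on both arrays, 1 of 9 members against 9.62% of all genes. None was at least 1.1-fold higher on both, against 9.43%. With the background model fitted to all spots the shares of all genes were 2.92% lower and 1.65% higher, and 0 of 9 members reached this size. No member passed 1.5-fold, against 0.582% of all genes higher and 0.431% lower. By sign alone, 3 of 9 members were lower on both arrays, against 27.4% of all genes, and 0 of 9 were higher, against 28.3%.

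C1qc gave -0.18 and -0.15 in FR (mean -0.17, 0.890 times the control), the closest pair of arrays among the 3 lower members. Aif1 gave -0.18 and -0.12 with its brighter probe (mean -0.15, 0.900 times the control) and -0.21 and 0.02 with its second probe. Cx3cr1 gave -0.08 and -0.41 (mean -0.25, 0.843 times the control), and its second probe 0.02 and -0.04, near 0. The means of all 3 were larger in size than the technical SD of 0.0722, and for Cx3cr1 array 2 carried most of the mean.

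The other members pointed different ways on the 2 FR arrays. Tyrobp gave 0.30 and -0.11 (mean 0.10). Trem2 gave 0.30 and -0.07 with its brighter probe (mean 0.11) and -0.07 and 0.07 with its second probe (mean 0.00). C1qa gave -0.22 and 0.09 (mean -0.06) and C1qb -0.07 and 0.07 (mean 0.00). P2ry12 gave 0.12 and -0.05 and Csf1r -0.05 and 0.01, and Ctss gave 0.11 on array 1 and -0.27 on array 2 with its flagged spot kept. For these genes the sign differed between the dye orientations. The means of Tyrobp and of the brighter Trem2 probe were above the technical SD of 0.0722 but below 2 times it (0.1445). Those of C1qa, C1qb, Csf1r and P2ry12 were within 0.0722.

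The difference between FD and FR was taken between arrays of equal dye orientation, where the dye effects shared by both comparisons cancel. On this scale C1qc, C1qb, Tyrobp and Aif1 were higher in FD relative to FR, by 0.17 to 0.25. They were at least 1.1-fold apart in both differences, 4 of 9 members against 9.46% of all 16750 genes measured in both, and 0 of 9 were lower by that size, against 8.44%. With median centring in place of loess, 5 of 9 members were higher and 0 lower, against 14.2% of all genes higher and 3.73% lower. The median of the 9 members was 0.11, against 0.00 for all genes, and it was above 0 in each of the 10 alternatives. With the background model fitted to all spots, 2 of 9 members were higher by a 1.1-fold size, against 4.16% of all genes, 0 were lower, against 4.67%, and the median was 0.06. By sign, 7 of 9 members were higher in both differences, against 31.2% of all genes, and 0 of 9 were lower, against 30.1%. None passed 1.5-fold, against 0.0716% of all genes higher and 0.269% lower.

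C1qc differed by 0.26 between arrays 1 and 0.23 between arrays 2 (mean 0.25), and C1qb by 0.23 and 0.25 (mean 0.24). Tyrobp differed by 0.15 and 0.19 (mean 0.17) and Aif1 by 0.17 in both (mean 0.17). For these 4 genes both dye orientations gave nearly the same difference. The means of C1qc and C1qb exceeded 2 times the technical SD of a difference (0.2043), and those of Tyrobp and Aif1 did not. Trem2 differed by 0.04 and 0.14, P2ry12 by 0.08 and 0.01, and Csf1r by 0.03 and 0.00. C1qa, at 0.12 and -0.09, and Cx3cr1, at -0.01 and 0.24, had no common sign. The second probes of Aif1 (-0.03 and 0.25) and Trem2 (0.30 and 0.04) were less even than the brighter ones.

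**Figure D2:**
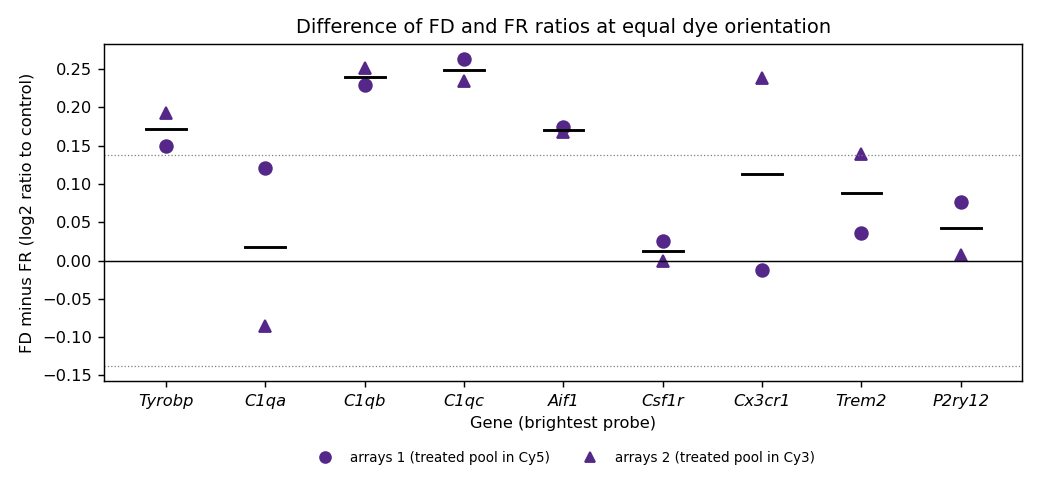
Difference of the FD and FR log2 ratios (vertical axis) for the 9 measured genes (horizontal axis). Circles are arrays 1, triangles arrays 2, short lines the means, and dotted lines a 1.1-fold difference; Tyrobp, C1qb, C1qc and Aif1 lie above the upper dotted line in both.

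The level in each pool shows what these differences are made of. Levels are log2 channel signals after loess and normalisation between arrays, and they compare pools for 1 probe, not genes with each other. C1qc had a level of 10.32 in FD, against 10.24 in the control of FD, and of 9.95 in FR, against 10.12 in the control of FR. FR was the lowest of the pools and FD the highest. Aif1 had 8.81 in FD, against 8.79 in its control, and 8.50 in FR, against 8.66 in its control, so FD and its control were alike and FR was lowest. For C1qb the level was 8.77 in FD, against 8.54 in its control, and 8.65 in FR, against 8.65 in its control. Here the FD pool stood 0.12 above the FR pool, while the control of FD stood 0.12 below the control of FR.

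Tyrobp had 9.61 in FD, against 9.34 in its control, and 9.33 in FR, against 9.23 in its control. Trem2 followed the same order with 9.43 in FD, against 9.22 in its control, and 9.15 in FR, against 9.04 in its control. With these brightest probes FD was highest and the control of FR lowest. The second Trem2 probe had 7.79 in FD, against 7.63 in its control, and 7.65 in FR, against 7.65 in its control. With that probe the control of FD was lowest. Cx3cr1 had 7.53 in FD, against 7.66 in its control, and 7.13 in FR, against 7.38 in its control, and its controls differed by 0.29. Csf1r was the flattest member, between 8.77 and 8.81 in all pools. C1qa had 8.45 in FD, against 8.50 in its control, and 8.40 in FR, against 8.47 in its control, and P2ry12 had 7.05, against 6.97, and 6.87, against 6.83. Ctss had 10.82 in FD, against 10.72 in its control, on array 2, and 10.66 in FR, against 10.55 in its control, on array 1. Over the 9 measured members the mean level was 8.75 in FD, against 8.67 in its control, and 8.53 in FR, against 8.57 in its control.

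**Figure D3:**
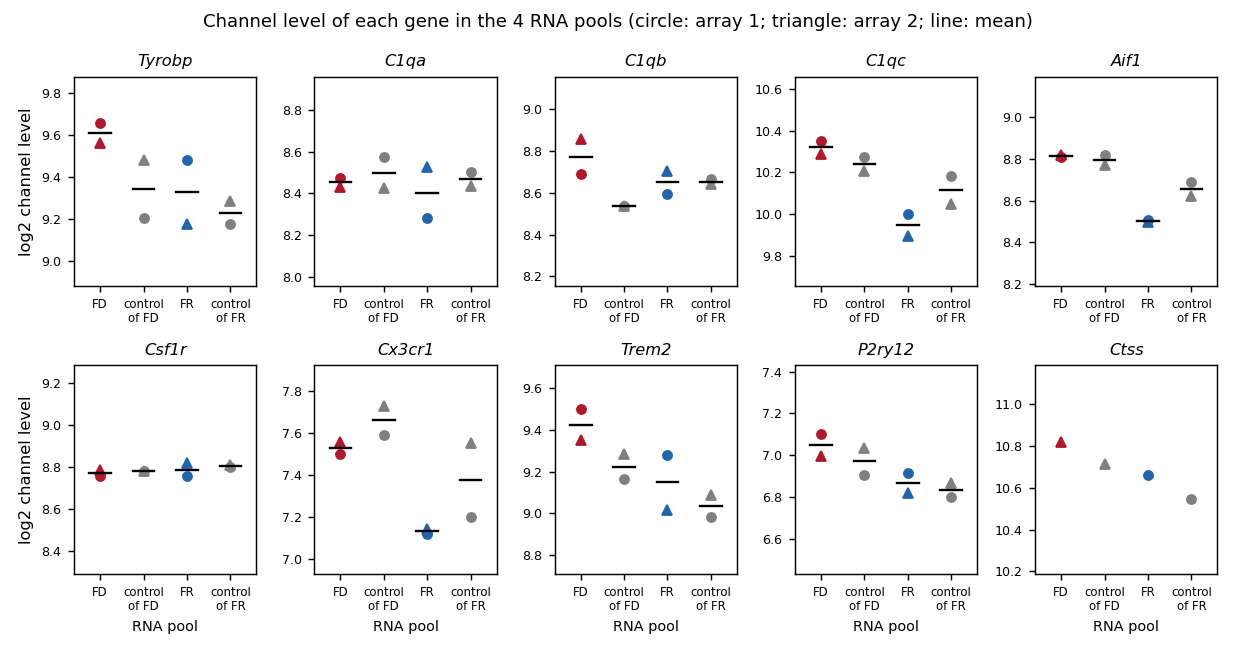
Log2 channel level (vertical axis, equal span in each panel) of the brightest probe of each gene in the 4 RNA pools (horizontal axis). Circles are array 1, triangles array 2 and lines the mean; Ctss has 1 unflagged array per comparison. C1qc, Aif1 and Cx3cr1 are lowest in FR, and Csf1r lies between 8.77 and 8.81 in all pools.

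Ligands and direct partners of the members were listed by role. Il34, the neuronal ligand of Csf1r, was higher in FD on both arrays at 0.27 and 0.42 (mean 0.35, 1.27-fold), and gave 0.15 and 0.10 in FR (mean 0.12). The other ligand, Csf1, gave a mean of 0.07 in FD and 0.05 in FR. Syk, the kinase that Tyrobp recruits, gave -0.05 and -0.06, and C3, the complement component downstream of C1q, -0.01 and -0.08. C3ar1, a receptor for a C3 fragment, gave 0.05 and 0.03. Itgam, a chain of complement receptor CR3, gave -0.02 in FD and was not measured in FR. Spi1, which encodes the myeloid transcription factor PU.1, was well above background in 3 of 8 channels, and Cx3cl1 and the cathepsin inhibitor Cst3 had no measured probe in either comparison. Of the wider list of Csf1r, Tyrobp and Trem2 signalling genes, 1 was at least 1.1-fold higher in FD (Il34) and 2 lower (Adam17, which sheds Trem2, mean -0.39, and Grn, progranulin, mean -0.21) of 21, against 4.88% and 4.62% of all genes. In FR, 0 were higher and 1 was lower of 20, the kinase subunit Pik3cd (mean -0.32), against 9.43% and 9.62% of all genes. Between FD and FR 0 of 20 differed by this size, against 9.46% of all genes higher and 8.44% lower.

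Other microglia and myeloid genes were set beside the members. Of 20 further microglia genes measured in both comparisons, 4 were at least 1.1-fold higher in FD relative to FR in both differences and 1 was lower (Tgfbr1, a receptor for TGF-beta, -0.17), with a median difference of 0.12. The ectonucleotidase Entpd1 differed by 0.37, the crystallin gene Crybb1 by 0.33, the nucleotide receptor P2ry6 by 0.26 and Tmem119, a microglial surface marker, by 0.18. Of 31 general myeloid genes, 11 were higher and 0 lower, with a median of 0.09, but 2 were higher with the background model fitted to all spots. Among them were Ly86, a partner of a Toll-like receptor homologue (0.39), and the surface protein Cd52 (0.35). Of 14 genes of border macrophages, 4 were higher and 0 lower, with a median of 0.15, among them the endocytic adaptor Dab2 (0.41) and Lyve1, a hyaluronan receptor (0.27). The shares of all genes apart by this size were 9.46% higher and 8.44% lower, as above. The medians of these 3 lists were above 0 in all alternatives. With the background model fitted to all spots 3 microglia and 2 border macrophage genes were higher, and the share of all genes was 4.16%.

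Counts against control are read beside the shares of all genes past 1.1-fold on both arrays, 4.88% higher and 4.62% lower in FD and 9.43% higher and 9.62% lower in FR. Of 32 myeloid genes, 0 were higher and 5 lower in FR, among them the Fc receptors Fcgr3 (mean -0.17) and Fcgr1 (-0.30), Cd52 (-0.42), and Adgre1, which encodes the macrophage antigen F4/80 (-0.37). In FD, 2 of 32 were higher, the Fc receptor Fcgr2b (0.27) and Ly86 (0.20), and 1 was lower. Of 22 further microglia genes in FR, 3 were lower (Fcrls and Entpd1, both -0.30, and Crybb1, -0.22) and 1 was higher (the fructose transporter Slc2a5, 0.22). In FD, 0 of 21 reached this size in either direction. The scavenger receptor Cd163 was the 1 gene higher of 15 border macrophage genes in FR (0.22), and 3 were lower (Dab2, -0.46, Ms4a7, -0.25, and Cbr2, -0.21). Cd163 (0.36) and Msr1 (0.22) were the 2 higher of 14 in FD, with 0 lower. These counts and the shares of all genes both depended on the processing. With median centring 2 of 32 myeloid genes were lower in FR, against 1.67% of all genes, and 0 were higher in FD, against 0.89%. With the background model fitted to all spots 0 myeloid, 0 border macrophage and 1 further microglia gene were lower in FR, against 2.92% of all genes.

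Complement and lysosomal genes outside the member set were counted in the same way. Counts in FD relative to FR are read beside the shares of all genes, 9.46% higher and 8.44% lower. Of 22 complement genes, 2 were higher and 1 lower in FD relative to FR, with a median of 0.08. In FD against control, complement C2 (0.30) and the complement inhibitor Cd59a (0.32) were higher and Calr, the chaperone calreticulin, which binds C1q, was lower (-0.45). Calr was also lower in FR (-0.52), where another of its probes was the brightest measured. Of 16 lysosomal genes, 3 were higher and 1 lower in FD relative to FR, with a median of 0.05. With median centring 8 were higher and 1 lower, against 14.2% and 3.73% of all genes, and the median was 0.19. Cathepsins Ctso (0.42) and Ctsb (0.23) were higher in FD against control, and Ctsc (-0.36) and Ctsz (-0.35) lower in FR. For Ctsb the probe used in FD gave -0.03 and 0.02 between FD and FR, so with that probe the higher value was not particular to FD. Another Ctsb probe was the brightest measured in FR and gave a mean of 0.05. Of 11 genes of purinergic signalling, 1 was higher and 1 lower in FD relative to FR, Entpd1 (0.37) and the vesicular nucleotide transporter Slc17a9 (-0.36). Of 27 genes of microglial activation on the array, 6 were not well above background in any pool, among them Il1b, Il6 and Nos2. Of the 14 measured in both, Lpl, lipoprotein lipase, was higher (0.34) and Spp1, osteopontin, lower (-1.12) in FD relative to FR.

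**Figure D4:**
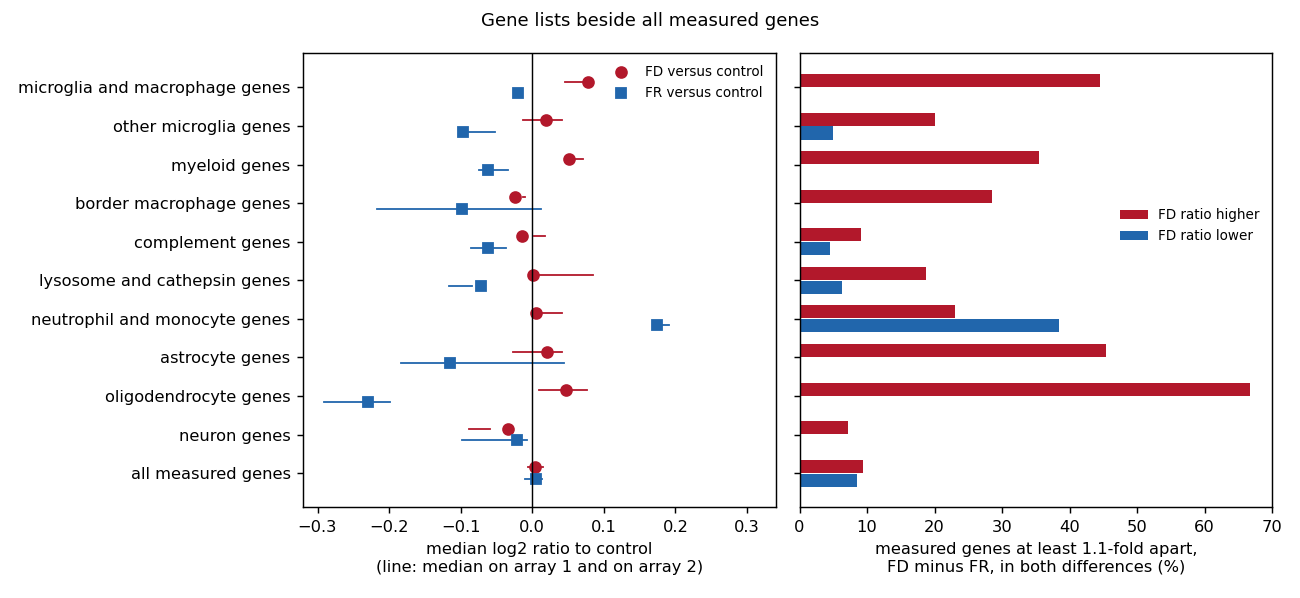
Left, median log2 ratio (horizontal axis) of each gene list (rows) in FD (circles) and FR (squares), each with a line joining the medians of array 1 and array 2, between which the median of the means need not fall. Right, the share of each list's measured genes (horizontal axis, %) at least 1.1-fold apart between FD and FR in both differences. The members' medians are 0.08 in FD and -0.02 in FR, and 4 of 9 members are higher in FD relative to FR, against 9.46% of all genes.

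Markers of other cells were read in the same pools. The mean level of 13 neutrophil and monocyte genes was 7.55 in FD, against 7.52 in its control, and 7.80 in FR, against 7.56 in its control, while 7 of 23 such genes on the array, Ngp, Lcn2, Elane and Cxcr2 among them, were not well above background in any pool. In FR, 6 of 13 were at least 1.1-fold higher and 4 lower, against 9.43% and 9.62% of all genes. With the background model fitted to all spots 1 was higher and 0 lower, against 1.65% and 2.92%. With bright-background spots left out, the stefin genes Csta1 (1.09) and Stfa1 (0.92) and the calprotectin chain S100a9 (1.05) passed 1.5-fold on both arrays. Bone and osteoclast genes had a mean level of 8.17 in FD, against 8.59 in its control, and 8.36 in FR, against 8.18 in its control. Glial genes also differed between FD and FR. Of 9 oligodendrocyte-lineage genes 6 were at least 1.1-fold higher in FD relative to FR (median 0.32), and 2 with the background model fitted to all spots, and of 11 astrocyte genes 5 were higher, 2 with that model (median 0.13), with 0 lower in either list. Of 14 neuronal genes 1 was higher and 0 lower (median -0.07, and 0.09 with median centring). The shares of all genes in FD relative to FR were 9.46% higher and 8.44% lower. With the background model fitted to all spots they were 4.16% and 4.67%. The part of these cell types in the members' values was not tested.

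Promoters are shown for C1qb and C1qc, the members with the largest difference between FD and FR, whose genes are neighbours on chromosome 4. The sequences are RefSeq promoters of build GRCm38.p6, each 300 bases around the start site, on the minus strand, 5′ to 3′. Of the 10 members 7 were in the promoter table, which did not hold Tyrobp, C1qa or Csf1r. Both strands were searched for GAGGAAG, a sequence that PU.1 is known to bind, and a match is in capitals, here on the other strand.
C1qc promoter, chr4:136892865-136893164: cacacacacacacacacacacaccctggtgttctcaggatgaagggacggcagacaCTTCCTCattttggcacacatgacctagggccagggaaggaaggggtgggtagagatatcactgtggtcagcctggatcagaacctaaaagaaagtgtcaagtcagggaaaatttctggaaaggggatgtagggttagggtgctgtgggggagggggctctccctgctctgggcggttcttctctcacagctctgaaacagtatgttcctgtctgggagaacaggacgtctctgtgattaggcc
C1qb promoter, chr4:136886151-136886450: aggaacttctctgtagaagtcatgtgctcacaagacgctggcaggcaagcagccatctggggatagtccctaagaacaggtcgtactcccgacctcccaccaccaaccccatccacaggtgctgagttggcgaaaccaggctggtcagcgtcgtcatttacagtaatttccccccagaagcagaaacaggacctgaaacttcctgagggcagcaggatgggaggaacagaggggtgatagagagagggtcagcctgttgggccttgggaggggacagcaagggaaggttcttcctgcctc
C1qc held 1 match, at position -194 from the start site, and C1qb none. Trem2 (position -41) and Ctss (position -1) each held 1 match, so 3 of 7 members had one, against 4477 of all 32851 promoters of the same length, or 13.6%. P2ry12, Cx3cr1 and Aif1 had none. A match describes letters in this window and says nothing of binding.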

How the data were processed

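Per the file headers, the authors scanned 4 arrays on 1 slide with Agilent Feature Extraction 9.5.3.1 (per the submitters' processing notes) and deposited mean spot and median local background intensity per dye, with 0 or 1 flag scores for signal above background, saturation and outliers. Also deposited is the scanner's own log10 ratio (red over green), already corrected for background and dye, per the file headers. No unit is given for the value table. Its columns correlated with the scanner ratio at r = 1, -1, 1 and -1 on bright spots, so they are log2 treated over control ratios, with medians of -0.03, 0.03, -0.03 and 0.01, and how the authors set dim spots is unknown.

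Intensities were corrected with normexp (offset 50) after leaving out spots whose local background exceeded 2 times their array's median (42 on FR array 2, 3 on FD array 1), a choice made in view of the values, and normalised by loess within arrays with limma 3.58.1 (R 4.3.3). Array controls and outlier-flagged spots were left out. Channel levels add Aquantile between arrays. Of 41174 probes, 26910 were named by accession, 5088 by symbol and 816 by a former symbol, and the file's own name stood for 8360. Passing meant at least 1.5-fold, or 1.1-fold, in 1 direction on both arrays. With 1 pool per condition no test or p-value was computed, and the number of arrays limits the precision. The steps were tested on simulated data. The members, the 17 other lists and the tests were chosen with earlier results of these data known. Named were all members and fixed partners. Genes with the largest change in a list, up to 3, and list genes past 1.5-fold were named for some lists only. Muscle, astrocyte, oligodendrocyte and neuronal genes were given without names, and the erythroid, lymphoid and endothelial lists were not described. Further list genes past 1.1-fold were named after their values were seen. Values of 1 list gene are not reported here.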

Additional observations from a re-analysis of the deposited data

Results flagged for a closer look

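C1qc was higher than control on both FD arrays and lower than control on both FR arrays, and its log2 ratio differed by 0.25 between FD and FR. The difference was not tested, since each condition is 1 pool. The same pattern of signs was shown by 1079 of 16750 genes, or 6.44%, and by 1 of the 9 measured members.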

How the results depend on the processing

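The members' medians kept their sign in the 10 alternatives, which are not 10 separate checks. The scanner ratio and the authors' value table gave the same medians. The FD median stayed at 0.0778 with normexp on all spots, with no filter on dim probes and with the mean over probes. The FD median was 0.0461 to 0.0790 when an array was left out, the FR median -0.0735 to -0.0724, and the difference between FD and FR 0.12 to 0.17. The FR median, -0.02 as reported, was -0.0709 with median centring in place of loess, -0.0312 with normexp on all spots, -0.0158 with no background correction, -0.0238 with the scanner ratio and with the authors' value table, -0.0126 with the mean over probes and -0.0420 with outlier spots kept (10 genes). The difference, 0.11 as reported, was 0.19 with median centring, 0.0570 with normexp on all spots, and 0.1927 with the scanner ratio and the value table. Members past 1.1-fold were 0 in FD and 0 in FR with median centring, 0 in FR and 2 in the difference with normexp on all spots, and 3 in FD and 2 in FR with the scanner ratio and the value table. Shares of all genes moved too. With median centring they were 0.89% higher and 0.7% lower in FD, and 1.8% and 1.67% in FR. With the scanner ratio they were 9.8% and 8.17% in FD, and 14.65% and 15.5% in FR. With 1 array left out, 2 to 4 members passed in FD, 2 to 5 in FR and 4 to 6 in the difference, because 1 array then decides. Leaving out array 1 gave 2 of 9 members in FD, against 17.79% of all genes higher and 19.78% lower. It gave 2 of 9 in FR, against 21.63% and 24.64%, and 6 of 9 in the difference, against 20.63% and 20.41%. The other causes were not tested. C1qa, Aif1, P2ry12 and Csf1r in FD, all members but C1qc, Aif1 and Cx3cr1 in FR, and C1qa, Cx3cr1 and Csf1r in the difference changed sign or reached 0 in at least 1 setting. All genes past 1.5-fold numbered 39 in FD (21 with median centring, 141 with the scanner ratio), 188 in FR (37, 605, and 13 with normexp on all spots) and 57 in the difference (66, 260 and 28). The median of all genes moved by under 0.1 everywhere. No paired analysis was possible because the array numbers mark the dye orientation of 1 pair of pools. The second Cx3cr1 probe and the third Csf1r probe, at 1.20 to 1.80 times the local background, lie closest to background, followed by P2ry12. The third Csf1r probe was not measured in FD and gave -0.12 and 0.20 in FR.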

Other observations

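Genes of the neutrophil and monocyte list differed in both directions between FD and FR. Ly6c2, a surface marker of inflammatory monocytes, was higher in FD than in its control at 0.43 and 0.26 (mean 0.34) and lower in FR than in its control at -0.39 and -0.43 (mean -0.41), a difference of 0.75 between FD and FR. Its relative Ly6c1, which endothelial cells also transcribe, gave 0.36 in FD and -0.21 in FR. The peptidoglycan-binding protein gene Pglyrp1 gave -0.36 in FR and differed by 0.54 between FD and FR. The stefin Csta1 differed by -1.10 and S100a9 by -1.17. With normexp on all spots 0 genes of the list were at least 1.1-fold lower in FR, against 2.92% of all genes. Mmp9, a protease of neutrophils and osteoclasts, was lower in both, at -0.46 in FD and -0.43 in FR. No difference was tested, with 1 pool per condition.

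Of 8 bone and osteoclast genes measured in FD, 5 were at least 1.1-fold lower than control and 0 higher, against 4.62% and 4.88% of all genes. In FR 4 of 9 were higher and 1 lower, against 9.43% and 9.62%. The collagen gene Col1a1 gave -0.83 in FD and 0.50 in FR, and the bone sialoprotein gene Ibsp -0.38 and 0.60. The osteopontin gene Spp1 gave -0.97 in FD, and 0.16 in FR, where it did not reach 1.1-fold on both arrays. Spp1 stands in both the bone list and the list of microglial activation used here.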
